A study of Mus musculus with 3 samples.

Results

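PDGFRβ-single (PDGFRβ-S) subaortic cells were set against double-negative (DN) stromal cells of the same sort, gene by gene. The embryos were wild-type C57BL/6J mice, named WT in the sample titles, at embryonic day 11 (E11), and the tissue was the aorta-gonad-mesonephros region (AGM). The genes described are the nuclear protein-coding genes of the deposited table, chosen by biotype and chromosome and not by their values, which gave 21994 of 47069 rows. TPM, the read share of a gene divided by its length, were rescaled to 1000000 over these genes in each library, and every level below is on that scale. Of the 21994 genes, 16609 had a read in at least 1 of the 2 libraries and 8253 had a mean of at least 10, and these 8253 are called well-measured.

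Both populations were sorted by flow cytometry as cells without CD31, CD45 and cKit, the surface proteins used to leave out endothelial and blood cells. PDGFRβ-S cells carried the receptor PDGFRβ and lacked NG2, the proteoglycan encoded by Cspg4. DN cells lacked both by their labels, while the text of the study describes their PDGFRβ as low or absent. A library of double-positive (DP) cells, which carried NG2 and PDGFRβ and otherwise met the same sort and strain, is given as a level beside single genes. Each population gave 1 library, and the numbers of embryos and cells behind it are not stated in the labels or methods. No replicate exists, so no p-value is given and the differences describe 2 libraries, not the populations of other embryos. Intervals are exact 95% intervals of a ratio of reads and cover counting error only.

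The AGM surrounds the dorsal aorta, the vessel in whose wall the first blood stem cells of the embryo form. The mesenchyme below the aorta holds cells of several fates, among them precursors of smooth muscle and pericytes, of the gonad and kidney stroma, and, among neural crest cells that settle there, the sympathetic chain. PDGFRβ is a receptor tyrosine kinase of mural and mesenchymal cells that responds to PDGF-B, and NG2 marks mural cells that have been recruited to a vessel.

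The sort genes were read first. Pdgfrb was at 33.01 in PDGFRβ-S, 15.8 in DN and 62.1 in DP, and its 508 and 277 reads gave a ratio of PDGFRβ-S to DN of 2.09 (interval 1.801 to 2.43). Pdgfrb transcripts were therefore measured in the DN library too, at the lowest of the 3 levels. Cspg4 was at 1.12, 2.83 and 18.6 in PDGFRβ-S, DN and DP, on 18 and 52 reads in the first 2, so both NG2-negative libraries were low. Kit was at 2.27 and 3.69, Pecam1, which encodes CD31, had 1 read in PDGFRβ-S and 0 in DN, and Ptprc, which encodes CD45, was listed at 0 in both.

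Markers of other cell types differed between the 2 libraries for some lineages and not for others. The 7 sympathetic markers summed to 44.9 in PDGFRβ-S and 337 in DN, with Th, Dbh and Sox10 listed at 0 in PDGFRβ-S, and the 6 skeletal muscle markers summed to 28.7 and 292. The 6 markers of epithelium and nephric duct summed to 9.102 and 44.4. Endothelial markers were near 0 in both, at sums of 10.8 and 4.96 with Cdh5, Tie1 and Sox17 listed at 0 in each, and of the 8 blood markers Ptprc, Spi1 and Adgre1 were listed at 0 in both while the embryonic globin Hbb-y was at 25975 and 22195. The 7 mesenchymal markers summed to 748 and 549, and Pdgfra, the receptor of most embryonic mesenchyme, was at 70.6 and 70.9. In bulk libraries, fewer cells of a type and less RNA per cell cannot be told apart. The depth was of the same order: 6515088 reads were recovered on the 21994 genes in PDGFRβ-S and 8186622 in DN. A gene of 2 kb with 3 reads corresponded to levels of 0.749 and 0.658.

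For most well-measured genes the 2 libraries differed by less than 1.5-fold. The ratio of each gene was taken as log2((PDGFRβ-S + 1)/(DN + 1)), and 6197 of 8253 genes (75.1%) lay within 1.5-fold. The median was -0.22, which is 1.17-fold lower in PDGFRβ-S, and the middle 50% of genes ran from -0.53 to 0.06. Genes counted as higher in PDGFRβ-S by at least 1.5-fold numbered 268 (3.25%) and those counted as lower 1788 (21.7%). At 2-fold, 66 genes (0.8%) were higher and 543 (6.58%) lower. Because the levels of a library share 1 total, a gene's ratio is relative to that total: once centred on the median, 758 genes were higher and 920 lower by 1.5-fold, so that 45.2% of the calls were higher in place of 13.04%. A gene that stood 1.5-fold higher than the median gene had a ratio of 0.36 or more, and one that stood 1.5-fold lower had a ratio of -0.81 or less. Of the 203 genes past 1.5-fold that the rule for named genes picked, none changed sign under any other setting. They were picked by this same ratio, far from 0, which made a change of sign unlikely, so this is no independent check. The genes nearest to the limits were F2r at 0.59 and Rps27rt at 0.58 for 1.5-fold higher, and Prrx1 at 1.00 and Crtap at 0.99 for 2-fold higher.

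**Figure D1:**
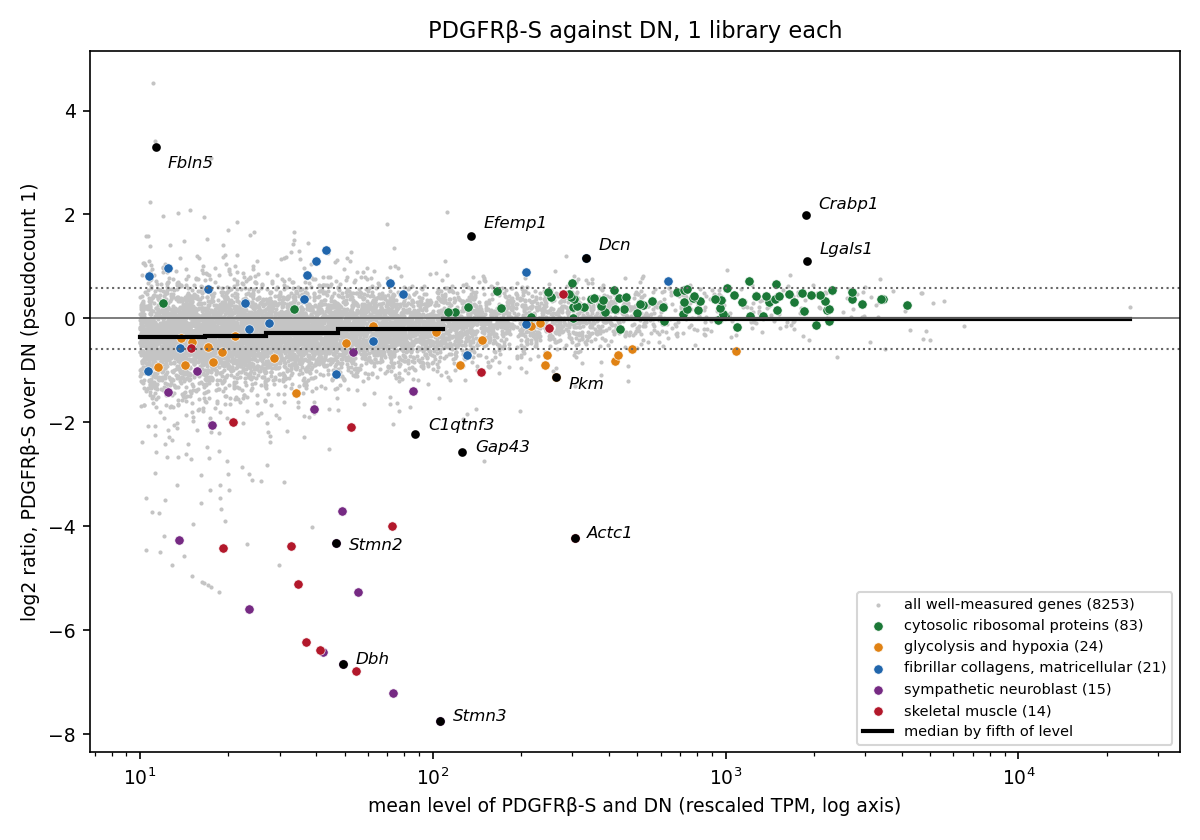
The log2 ratio of PDGFRβ-S to DN (vertical axis, rescaled TPM + 1) is plotted against the mean level of the 2 libraries (horizontal log axis, rescaled TPM) for the 8253 well-measured genes, with 5 gene lists in color, single genes named, the 1.5-fold limits dotted and the median in 5 classes of level as a black line. The cloud lies around a median of -0.22 and reaches further below the 1.5-fold limits, where 1788 genes lie, than above them, where 268 lie.

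Most of the small differences were larger than counting error. The well-measured genes had a median of 351.5 reads in PDGFRβ-S and 490 in DN, for which counting alone gives a typical SD of the log2 ratio of 0.10, while the SD across genes was 0.61. In genes with 1000 to 3000 reads over both libraries, of which there were 2571, the SD of the ratios was 0.41 against 0.08 from counting. In the 153 genes with more than 10000 reads it was still 0.33 against 0.02. The 95% counting interval left out a ratio of 1 for 5720 genes, of which 1349 were higher and 4371 lower in PDGFRβ-S, and it did so for 259 of the 268 genes counted as higher and 1774 of the 1788 counted as lower. With 1 library each, a difference between the populations and one between any 2 libraries cannot be told apart. For scale, the SD of the ratios was 1.04 between DP and DN and 1.06 between DP and PDGFRβ-S, comparisons that share a library with the present one.

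**Figure D2:**
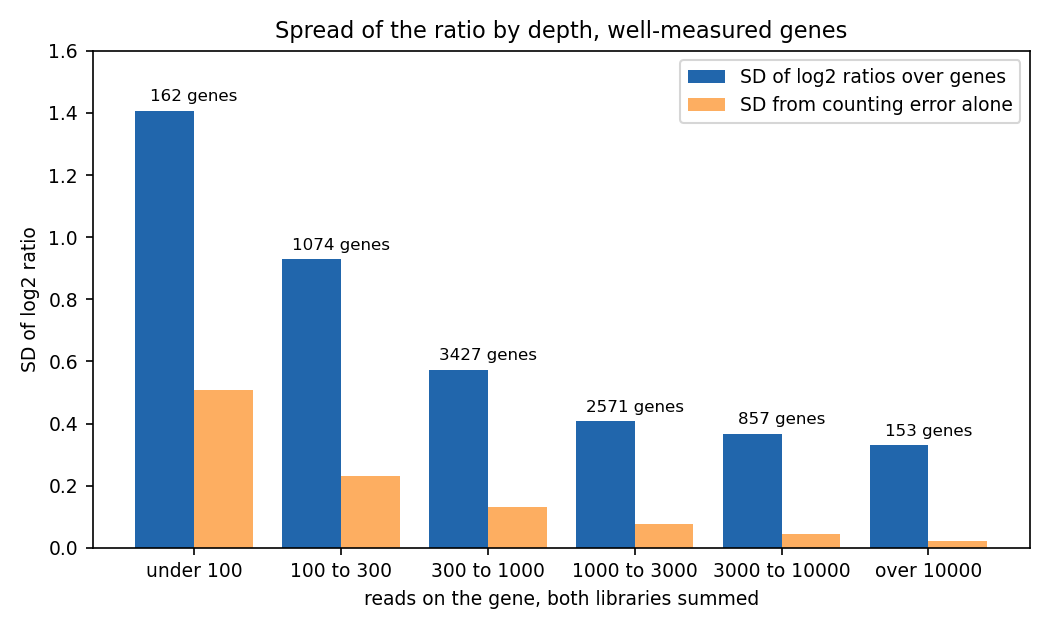
The SD of the log2 ratio of PDGFRβ-S to DN across genes and the SD that counting of reads alone would give (vertical axis, log2 units) are plotted for 6 classes of reads over both libraries (horizontal axis). The SD across genes falls from 1.41 under 100 reads to 0.33 above 10000 reads, and the counting SD falls from 0.51 to 0.02.

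The ratio also moved with the level and the length of a gene. In 5 classes of equal size from the lowest to the highest level the median ratio was -0.37, -0.33, -0.28, -0.21 and -0.01, and in 5 such classes from the shortest to the longest annotated exon length it was 0.01, -0.20, -0.24, -0.29 and -0.33. Genes counted as higher had a median exon length of 2417.5 bp, those counted as lower 4516 bp and all well-measured genes 4201 bp. The GC content of the exons moved the median by less, from -0.19 to -0.26 over its classes. For this reason the median of a gene list is given as measured and, beside it, after centring within classes of level and length. Centring puts the median of all genes at 0. A centred list median therefore compares with the distance of the measured one from -0.22, which is given too.

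Matrix genes stood among the higher ones, which made up 3.25% of all well-measured genes, while 21.7% were lower. The list of fibrillar collagens and matricellular proteins, the fibres and the fibre-binding proteins of connective tissue, had 21 well-measured members, of which 9 were higher by 1.5-fold, 3 lower and 9 between, with a median ratio of 0.46 where all genes had -0.22. The list median lay 0.69 above that of all genes, and 0.73 above it after centring within level and length classes. Dcn, the collagen-binding proteoglycan decorin (chromosome 10, 97479500 to 97518162, mm10), was at 462 in PDGFRβ-S, 206 in DN and 686 in DP, a ratio of 2.24 (interval 2.08 to 2.42) between the first 2. Col3a1, the chain of type III collagen, was at 272, 145 and 328, a ratio of 1.87 (interval 1.798 to 1.96). Both intervals lay above 1, and in both genes DP was the highest of the 3 libraries. Col1a1 and Col1a2, the chains of type I collagen, were at 47.8 and 88.6 in PDGFRβ-S against 26.5 and 54.9 in DN. Lum and Ogn encode other proteoglycans of this family. Lum was at 794 against 479, and Ogn at 54.9 against 25.04. The 3 lower members were Vcan, the large hyaluronan-binding proteoglycan versican, at 99.1 against 162, Col14a1 at 6.77 against 14.6, and Sparcl1 at 29.7 against 63.4. The collagens that bind or form fibres of connective tissue were therefore not all on 1 side, and Fn1, fibronectin, at 92.05 against 66.6, and Postn, periostin, at 53.1 against 72.3, lay within 1.5-fold.

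Of the elastic fiber genes, 3 of 14 well-measured members were higher and none lower, with a median of 0.16. Over all well-measured genes 3.25% were higher and 21.7% lower. Fbln5, whose product fibulin-5 tethers elastin fibres to cells (chromosome 12, 101746565 to 101819055), had 249 reads in PDGFRβ-S and 17 in DN, levels of 21.3 and 1.28, and it was at 162 in DP. Its ratio of 16.7 (interval 10.2 to 29.1) was among the highest of all well-measured genes. Efemp1, a related fibulin, was at 203, 67.2 and 336 in PDGFRβ-S, DN and DP, a ratio of 3.01 (interval 2.66 to 3.42). Lox, the enzyme that cross-links collagen and elastin, was at 14.3 against 6.295. The scaffold proteins of the fibre itself differed little: Fbn1 was at 13.2 against 13.1, and Fbn2 at 81.5 against 78.5. Of the 8 well-measured basement membrane genes none was higher by 1.5-fold and 1 was lower, Lamb1, a laminin chain, at 15.1 against 24.4. Among matrix proteases and their inhibitors, 2 of 16 were higher, both secreted metalloproteases of the ADAMTS family: Adamts18 at 51.8 against 15.6 and Adamts1 at 28.2 against 14.8.

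Several smooth muscle contractile genes were higher, at levels well below those of DP. Of 18 well-measured members 4 were higher, 1 lower and 13 neither, where 3.25% of all well-measured genes were higher and 21.7% lower. The median of 0.28 lay 0.51 above that of all genes, and 0.46 above it after centring within level and length classes. Tagln, the actin-binding protein SM22 alpha that appears early in smooth muscle, was at 109 in PDGFRβ-S, 30.4 in DN and 1684 in DP, and its PDGFRβ-S to DN ratio was 3.58 (interval 2.63 to 4.94). Myl9, a regulatory myosin light chain, was at 397, 173 and 2209, a ratio of 2.29 (interval 2.11 to 2.49), and Acta2, smooth muscle actin, at 341, 182 and 11063, a ratio of 1.88 (interval 1.71 to 2.06). All 3 PDGFRβ-S levels lay far nearer to DN than to DP. Reads of Acta2 can be shared with the near-identical actins, which makes its level uncertain. Cnn2, a calponin, was the last higher member, at 417 against 250.1, and Actn4, a non-muscle actinin, the only lower one, at 11.8 against 25.7. Genes of contractile cells are known for the CArG box, a motif bound by serum response factor, and the 300 bases from 250 before to 50 after the start held one on either strand in 4 of the 17 members with a window (23.5%: Cnn2, Myl6, Myl9 and Vcl) and in 106 of 6256 well-measured genes (1.69%). The box of the Myl9 promoter is shown because this gene had the largest ratio of the 4, with the match in capitals, in the RefSeq sequence of GRCm38.p6 at chr2:156775293-156775322 on the plus strand, where it covers positions -161 to -152 from the start.
Myl9: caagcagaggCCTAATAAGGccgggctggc
The windows of Tagln and Acta2 held no match, which says only that the letters are not in these windows. The 4 members with a match had a median ratio of 0.65 and the 13 without 0.15, and a match describes letters and not a bound site.

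Mural cell genes were split. Of 14 well-measured members, 4 were higher, 4 lower and 6 neither, with a median of 0.11. Over all well-measured genes 3.25% were higher and 21.7% lower. Rgs5, a regulator of G protein signalling used as a pericyte marker, was at 70.7 in PDGFRβ-S, 31.2 in DN and 199 in DP, a ratio of 2.27 (interval 1.99 to 2.6). Its relative Rgs4 lay on the other side, at 2.84, 34.6 and 6.53, a level 12.2-fold (interval 8.55 to 17.9) higher in DN. The other 2 higher members beside Rgs5 and Pdgfrb were the transcription factors Zic1, at 16.2 against 9.05, and Tbx18, at 38.7 against 25.2. Of the 8 mural markers, 4 had a ratio above 0. On the DN side were Cspg4, Mcam at 11.2 against 13.8, Heyl at 3.30 against 4.88 and Notch3 at 6.77 against 7.80. The intervals of Mcam, Heyl and Notch3 held 1, and that of Cspg4 lay below 1. Cd248, the endosialin of stromal cells, reached 16.2 against 10.6 on 83 and 62 reads, within 1.5-fold on the log2 scale used, and Abcc9 and Ednra, a potassium channel subunit and an endothelin receptor of pericytes, were at 54.9 against 49.96 and 48.95 against 46.4. Among receptors of vasoactive ligands, Agtr2, the type 2 receptor of angiotensin II, was at 63.7 in PDGFRβ-S, 217 in DN and 27.7 in DP, 3.41-fold (interval 3.07 to 3.79) higher in DN, and it was the deepest measured of the lower receptors at 1749 reads in DN.

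**Figure D3:**
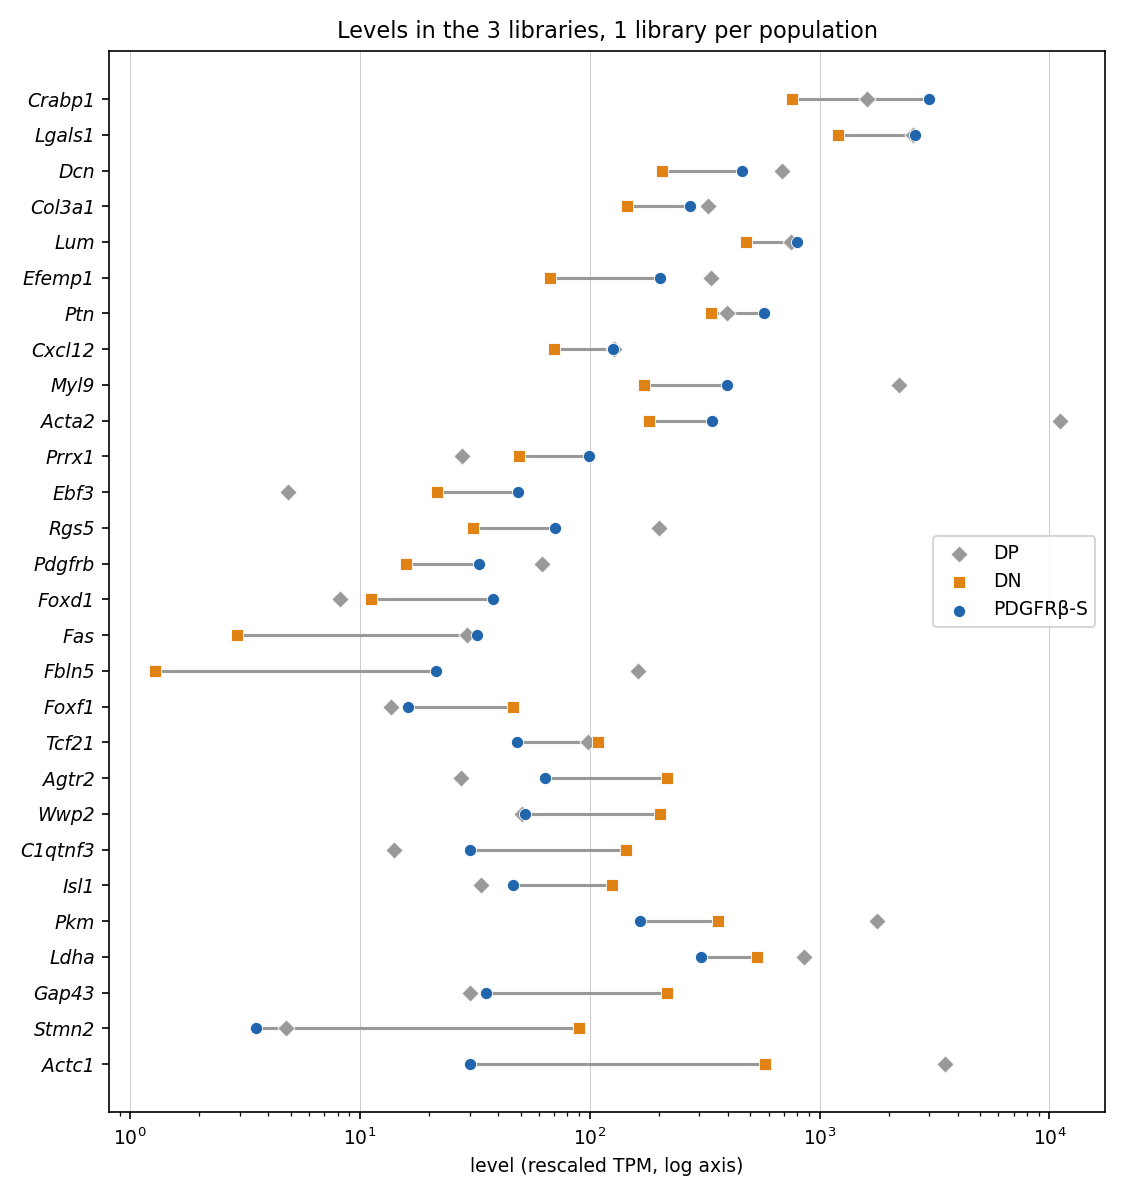
The levels of named genes in PDGFRβ-S, DN and DP (horizontal log axis, rescaled TPM) are plotted as 1 point per library. Fbln5 is at 21.3 in PDGFRβ-S, 1.28 in DN and 162 in DP, while Agtr2 is at 63.7, 217 and 27.7.

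The gene with the largest ratio among those with at least 1000 reads over both libraries was Crabp1, which encodes a cytoplasmic carrier of retinoic acid (chromosome 9, 54764748 to 54773110). It was at 2997 in PDGFRβ-S, 755 in DN and 1606 in DP, and its 4812 and 1380 reads gave a ratio of 3.97 (interval 3.74 to 4.22). Of the 11 well-measured retinoic acid genes 2 were higher and none lower, where 3.25% and 21.7% of all well-measured genes were. The median of 0.26 lay 0.48 above that of all genes, and 0.27 above it after centring within level and length classes. The second was Rarb, a receptor that is itself induced by retinoic acid, at 113 against 73.3. Crabp2, the second carrier, was at 987 against 730.5, and Aldh1a2, the enzyme that makes retinoic acid in the embryo, at 199 against 161 with 486 in DP. Rara, the receptor found in most cells, at 10.2 against 15.3, lay within 1.5-fold.

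Factors known from blood stem cell niches were among the small differences. Of 13 well-measured members 3 were higher, 2 lower and 8 neither, where 3.25% of all well-measured genes were higher and 21.7% lower. The median of 0.32 lay 0.55 above that of all genes, and 0.40 above it after centring within level and length classes. Cxcl12, the chemokine that retains stem cells in the marrow, was at 126 in PDGFRβ-S, 69.9 in DN and 128 in DP, a ratio of 1.81 (interval 1.71 to 1.91) on 3277 and 2063 reads. Ptn, the growth factor pleiotrophin, was at 572, 335 and 396, a ratio of 1.71 (interval 1.63 to 1.79), and Vcam1, an adhesion protein for blood cells, at 19.9, 11.3 and 20.5. For these 3 the PDGFRβ-S level was above DN and, in Cxcl12 and Vcam1, close to DP. Kitl, the ligand of cKit, was on the other side, at 9.47, 24.03 and 3.51, 2.54-fold (interval 2.07 to 3.13) higher in DN. Cdkn1c, an inhibitor of the cell cycle, was the second lower member, at 163 against 247, a ratio of -0.59 on the log2 scale that is within 1.5-fold once centred. Bmp4, a ligand made below the aorta, was at 94.98 against 75.6, and Mdk, midkine, the relative of pleiotrophin, at 2267 against 1671, both within 1.5-fold. Lepr, the leptin receptor that marks stroma of the adult marrow, was at 121 against 93.1.

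In the signalling lists single members stood out, while most lay within 1.5-fold. Their counts stand against 3.25% of all well-measured genes higher and 21.7% lower. In the Wnt list, 2 of 29 well-measured genes were higher, 1 lower and 26 neither, with a median of -0.03. Wnt2, a ligand of canonical signalling, was at 36.1 in PDGFRβ-S, 11.3 in DN and 134 in DP, a ratio of 3.2 (interval 2.36 to 4.397) on 163 and 58 reads, and Dkk2, a secreted modulator of Wnt receptors, at 32.9 against 17.6. The lower member was the receptor Fzd3, at 51.1 against 78.1, and Ctnnb1, beta-catenin, was at 283 against 348. In the BMP and TGF-beta list, 2 of 31 were higher and 8 lower, with a median of -0.10. The share of lower members was near that of all genes. Gdf10, a ligand of the family, was at 18.9 against 6.47, and Fstl1, a secreted follistatin-like protein, at 395 against 233, a ratio of 1.696 (interval 1.62 to 1.77). The lower members included inhibitors that bind the ligands, such as Grem1 at 9.39 against 18.3, Nbl1 at 5.38 against 19.2 and Fst at 19.02 against 31.7, and the receptor Acvr2b at 28.01 against 59.6. The direct targets of BMP signalling that encode Id proteins were not on 1 side: Id4 was at 7.82 against 29.9, and Id3 at 1699 against 1297.

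In the PDGF and VEGF list, Pdgfrb and the vessel-acting ligand Angpt2, at 17.7 against 8.98 and 166 in DP, were the 2 higher of 11 well-measured members. Pdgfc, a ligand of PDGFRα, was the only lower one, at 28.1 in PDGFRβ-S, 63.2 in DN and 19.5 in DP, 2.25-fold (interval 2.01 to 2.53) higher in DN. In the IGF list 1 of 14 was higher and 3 were lower, where 3.25% and 21.7% of all well-measured genes were. The median was -0.38, and the share of lower members was near that of all genes. The higher one was Igfbp7, a secreted binding protein, at 28.5 against 10.1 with 143 in DP, and the lower ones were the signalling genes Igf1r, at 16.7 against 27.4, and Irs1, at 35.3 against 61.7, and the RNA-binding Igf2bp1, at 27.8 against 43.5. The ligands themselves lay within 1.5-fold, Igf1 at 111 against 102 and Igf2 at 155 against 119. Of 13 FGF genes none was higher and 5 were lower, with a median of -0.30. The 5 were the ligands Fgf9, at 6.19 against 15.8, and Fgf10, at 8.26 against 13.9, the receptor-like Fgfrl1, at 10.6 against 23.2, and the known targets of FGF signalling Etv5, at 6.97 against 20.8, and Dusp6, at 65.4 against 118. Spry2, another target, was at 73.3 against 78.7, within 1.5-fold.

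Hedgehog genes had 1 higher, 3 lower and 8 within 1.5-fold of 12 well-measured members, with a median of 0.02 that was below the median of all genes when TPM were used as deposited. Over all well-measured genes 3.25% were higher and 21.7% lower, so the share of lower Hedgehog genes was near that of all. Ptch1, the Hedgehog receptor and a target of the pathway, was at 20.1 in PDGFRβ-S, 36.5 in DN and 6.66 in DP, 1.82-fold (interval 1.66 to 1.996) higher in DN. Hhip, a decoy receptor and target, was at 5.75, 14.5 and 0.802, and the target Foxf1 at 16.1, 46.1 and 13.6. The effectors Gli2, at 14.9 against 12.7, and Gli3, at 79.8 against 70.2, lay within 1.5-fold. The 3 lower members were thus targets or inhibitors and not Gli factors, while the 1 higher member reached 0.80 on the log2 scale. In the Notch list, 1 of 8 was higher, the ligand Jag1 at 39.1 against 23.2 and 65.7 in DP, and 3 were lower, Hes6 at 15.1 against 57.8, Numb at 11.4 against 21.1 and Maml1 at 7.39 against 15.02. Hes6 is a factor of neural and muscle precursors, and Hes1, the common target of Notch, was at 69.5 against 55.5. Guidance genes had 2 of 24 higher and 7 lower, with a median of -0.37. Slit2, a secreted guidance cue, was at 10.5 against 24.7, 2.36-fold (interval 2.17 to 2.57) higher in DN, with 3.53 in DP. Its receptor Robo2 was at 14.3 against 35.1, 2.45-fold (interval 2.24 to 2.68) higher in DN, with 4.92 in DP. The pair thus lay on the same side in these libraries. Sema3c, a semaphorin, was at 10.4 in PDGFRβ-S, 40.1 in DN and 7.72 in DP, and the ephrin Efna1 at 5.85, 24.4 and 5.72. For these 4 genes the DP level was at or below the PDGFRβ-S level.

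Transcription factors of embryonic mesenchyme lay on both sides. Of 31 well-measured homeobox and bHLH factors, 6 were higher, 5 lower and 20 neither, with a median of -0.03. Over all well-measured genes 3.25% were higher and 21.7% lower, so lower factors were no more frequent than lower genes at large. Alx1, a homeobox factor of craniofacial and limb mesenchyme, was at 26.9 in PDGFRβ-S, 6.26 in DN and 24.3 in DP, a ratio of 4.299 (interval 3.39 to 5.49). Prrx1, a homeobox factor of limb and body wall mesenchyme, was at 99.4, 49.1 and 27.9, a ratio of 2.02 (interval 1.91 to 2.15) on 3177 and 1788 reads. Twist1, the bHLH factor, was at 88.4 against 51.03, and Emx2, a factor of the urogenital ridge, at 13.4 against 7.94. Among the lower ones were Isl1, Tcf21, Meox1 and Meis3. Isl1, a LIM homeobox factor of cardiac, limb and neural precursors, was at 46.4 in PDGFRβ-S, 125 in DN and 33.7 in DP, 2.69-fold (interval 2.43 to 2.98) higher in DN, and it is also a gene of sympathetic neuroblasts, whose markers were higher in DN. Tcf21, a bHLH factor of visceral mesenchyme, was at 48.2, 109 and 98.7, 2.26-fold (interval 1.82 to 2.82) higher in DN. The factors of the genital ridge and kidney Wt1, at 27.1 against 24.9, and Osr1, at 80.8 against 69.2, lay within 1.5-fold.

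The forkhead factors lay at both ends of the scale, with 2 higher, 3 lower and 6 within 1.5-fold of 11 well-measured members and a median of -0.18. Over all well-measured genes 3.25% were higher and 21.7% lower. Foxd1, which marks the stroma of the developing kidney, was at 37.7 in PDGFRβ-S, 11.2 in DN and 8.17 in DP, a ratio of 3.36 (interval 2.51 to 4.55), and Foxc1 at 56.9, 32.3 and 9.597, a ratio of 1.76 (interval 1.52 to 2.05). Foxf1 and Foxf2, factors of mesenchyme around the gut that respond to Hedgehog, were the 2 lowest of the list, 2.86-fold (interval 2.21 to 3.73) and 2.297-fold (interval 1.87 to 2.83) higher in DN, and Foxo1 was the last lower one, at 10.3 against 23.3. Foxl1, another factor of gut mesenchyme, was at 114 against 116 and did not share that direction. The T-box factors with a mean of 10 or more were 3, of which Tbx1, at 22.2 against 4.69 on 79 and 19 reads, and Tbx18 were higher and Tbx15, at 13.2 against 8.55, within 1.5-fold. Hox genes, whose clusters set the position of a cell along the body, differed little when pooled, with a share of lower genes near the 21.7% of all genes. Of 20 well-measured Hox genes 1 was higher, Hoxa7 at 24.2 against 13.1, and 5 were lower: Hoxb2 at 13.3 against 25.8, Hoxb9 at 18.97 against 35.4, Hoxc4 at 8.28 against 16.03, Hoxd9 at 9.59 against 15.2 and Hoxd10 at 39.1 against 67.9. Neighbours in the Hoxc and Hoxd clusters, such as Hoxc5 at 37.1 against 27.4, Hoxc10 at 46.3 against 53.1 and Hoxd11 at 123 against 99.9, lay within 1.5-fold. The clusters were not alike. The 3 well-measured Hoxb genes all had ratios below 0, with a median of -0.87, where the medians of Hoxa, Hoxc and Hoxd were 0.24, 0.23 and -0.22. Relative to all genes the Hoxb median was -0.64, and from -0.67 to -0.40 over 11 alternative settings.

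Of 25 well-measured adhesion genes 7 were lower and 2 higher, where 21.7% and 3.25% of all well-measured genes were, and their median of -0.11 lay above the -0.22 of all genes. The higher ones were Vcam1 and Alcam, an immunoglobulin family adhesion protein, at 40.8 against 23.7. The lower ones included the integrin subunits Itga4, at 5.698 against 14.7, and Itga6, at 10.4 against 26.3, and Cdh6, a cadherin, which at 2.28 in PDGFRβ-S, 35.2 in DN and 10.9 in DP differed most. Itgav, which pairs into receptors for fibronectin and vitronectin, was at 25.99 against 19.7, and Fermt2, which activates integrins, at 123 against 94.2, both within 1.5-fold.

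Genes of the sympathetic lineage were the furthest toward DN. All 15 well-measured members of the list of sympathetic neuroblasts and neural crest were lower in PDGFRβ-S, with a median ratio of -4.26. The counts of this and the next lists stand against 21.7% of all well-measured genes lower and 3.25% higher. Dbh and Th, enzymes of noradrenaline synthesis, reached 98.96 and 47.2 in DN. Both were listed at 0 in PDGFRβ-S and in DP, at least 182-fold and 56.5-fold lower in PDGFRβ-S with the floor set at 3 reads in that library. Stmn3 and Ina, proteins of the neuronal cytoskeleton, were at 212 and 84.3 in DN and also listed at 0, at least 161-fold and 182-fold lower. Stmn2, of the same kind, was at 3.55 in PDGFRβ-S, 90.2 in DN and 4.76 in DP, and Tubb3, the neuronal tubulin, at 1.87, 109 and 10.8. Ngfr, a receptor found on neural crest and on mesenchyme, differed least of the list, at 41.3 against 65.4. Skeletal muscle genes followed, with 11 of 14 well-measured members lower, 3 within 1.5-fold and a median of -4.11. Myog, a factor of muscle differentiation, reached 82.2 in DN. It was listed at 0 in the PDGFRβ-S and DP libraries, at least 81.96-fold lower, and Mylpf, a muscle myosin light chain, was at 7.67, 138 and 10.1. Actc1, cardiac actin, was at 30.3, 579.9 and 3515, values that can hold reads of the near-identical actins. Chrna1, an acetylcholine receptor subunit of muscle, did not follow the rest, at 324 against 233. Of 5 well-measured epithelial genes 4 were lower, among them Epcam, an epithelial adhesion protein, at 8.82 against 19.6, and Spint2, a protease inhibitor, at 8.902 against 46.6. The part of these lineages in the other lower genes was not tested.

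Other lower genes with many reads belonged to none of these lists. Wwp2, a ubiquitin ligase of cartilage and other tissues, was at 52.2 in PDGFRβ-S, 202 in DN and 50.9 in DP, 3.87-fold (interval 3.49 to 4.29) higher in DN. C1qtnf3, a secreted protein of the C1q and TNF family, was at 30.1, 144 and 14.1, and Gap43, a growth cone protein of neurons, at 35.5, 217 and 30.2. In all 3 the PDGFRβ-S and DP levels were nearer to each other than to DN. Sclerotome and cartilage genes had 3 of 10 lower and 1 higher, where 21.7% and 3.25% of all well-measured genes were. Col2a1, the cartilage collagen, was at 46.1 against 104, 2.24-fold (interval 2.05 to 2.46) higher in DN. Pax1 was at 23.97 against 38.7 and Sox5 at 8.21 against 13.7, while Scx, a factor of tendon precursors, was at 38.7 against 22.4. Sox9, the factor that drives cartilage genes, was at 56.7 against 77.5, within 1.5-fold. Among other higher genes, Lgals1, the galectin of stromal cells, was at 2589 in PDGFRβ-S, 1199 in DN and 2550.5 in DP, a ratio of 2.16 (interval 2.05 to 2.27). Fas, the death receptor and a member of the apoptosis list, was at 32.2, 2.92 and 29.2 on 116 and 12 reads in the first 2, and S100a6, a calcium-binding protein, at 24.6, 5.0 and 45.7. DP was near or above PDGFRβ-S in these 3. Rxfp2, the receptor of the hormone INSL3, was at 18.5, 3.16 and 2.19, a ratio of 5.86 (interval 4.44 to 7.87), and Ebf3, an EBF transcription factor, at 48.7, 21.6 and 4.85, and here PDGFRβ-S was the highest of the 3 libraries. Fli1, an ETS factor of endothelium and blood, and the 1 well-measured member of the endothelium list, was at 71.6 against 32.8. The endothelial markers, at low levels in both libraries, lay on the same side, their sum 2.18-fold higher in PDGFRβ-S. Emcn, a surface sialomucin of endothelium, had 63 reads against 23, a ratio of 3.12 (1.91 to 5.27). The intervals of Tek, an angiopoietin receptor, and Erg, an ETS factor, also lay above 1, with ratios of 2.51 and 2.93. The part of endothelial cells in the level of Fli1 was not tested.

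The largest groups of well-measured genes differed by small amounts that many members shared. Of 83 cytosolic ribosomal protein genes, which encode the protein part of the ribosome, 77 had a ratio above 0, 4 were higher by 1.5-fold and none lower, with a median of 0.32. Over all well-measured genes 29.2% had a ratio above 0, 3.25% were higher and 21.7% lower, so the share of higher members was near that of all genes. Rpl39 was at 1497 in PDGFRβ-S and 905 in DN, a ratio of 1.65 (interval 1.58 to 1.73), and Rpl22l1 at 370.2 and 229, a ratio of 1.61 (interval 1.53 to 1.702). At the other end Rpl3 was at 406 and 467, Rplp0 at 1033 and 1158 and Rpl4 at 1947 and 2138, all within 1.5-fold. These genes are short and highly expressed, the 2 properties with which the ratio moved, and their median above that of all genes fell from 0.54 to 0.24 once centred within classes of level and length. Within the list the shorter members had a median of 0.37 and the longer ones 0.23. Many have processed pseudogenes that share their reads. Vertebrate ribosomal protein genes start within a run of C and T, the motif that makes their translation depend on growth signals, and a run of at least 8 such bases within 10 bases of the start was found in 30 of 62 members with a window (48.4%) and in 1016 of 6256 well-measured genes (16.2%). The start sites of a pair of the most shifted members and of Rpl4, which was not shifted up, are shown with the run in capitals, from RefSeq on GRCm38.p6, at chrX:37085198-37085227 on the minus strand, chr3:28805499-28805528 on the plus strand and chr9:64173361-64173390 on the plus strand.
Rpl39: gcctctagcgaCTTCTTCTaatcgcgttct
Rpl22l1: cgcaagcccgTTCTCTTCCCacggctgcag
Rpl4: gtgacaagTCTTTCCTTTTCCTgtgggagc
Of these 3 genes the run was longest in Rpl4, where it lay before the annotated start, at positions -18 to -5. In Rpl22l1 it covered positions 1 to 10 from the start and in Rpl39 positions 6 to 13. Members with a run had a median ratio of 0.33 and those without 0.24, and the windows of Rpl36, Rpl3 and Rplp0 held no match.

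Genes of the respiratory chain showed the same small shift with both ends represented. Of 78 well-measured nuclear-encoded subunits 57 had a ratio above 0, 6 were higher and 4 lower, where 3.25% and 21.7% of all well-measured genes were. A ratio above 0 was found in 29.2% of all well-measured genes. The median of 0.30 lay 0.53 above that of all genes, and 0.18 above it after centring within level and length classes. The higher ones were small accessory subunits such as Uqcr10 of complex III, at 440.3 against 260.3, and Ndufa5 of complex I, at 382 against 235. The 4 lower ones were Atp5a1 and Atp5b, the catalytic head of ATP synthase, at 187 against 307 and 249 against 388, Sdha of complex II, at 75.8 against 126, and Uqcrc2, a core protein of complex III, at 149.6 against 252. Subunits of 1 complex therefore lay on opposite sides, and the higher members had a median exon length of 970 bp and the lower ones 3630.5 bp. The mitochondrial ribosomal proteins, which act in the same organelle, had 1 of 76 members past 1.5-fold and a median of 0.04. That lay 0.26 above the median of all genes, and 0.15 above it after centring. Histones and HMG proteins, which package DNA, had 1 higher, 1 lower and 77 within 1.5-fold of 79, and their near-identical copies share reads. Their median of 0.21 lay 0.44 above that of all genes, and 0.11 above it after centring.

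Glycolytic genes moved the other way. Of 24 well-measured members of the glycolysis and hypoxia list none was higher and 13 were lower, where 3.25% and 21.7% of all well-measured genes were. The median was -0.63, and none of the 24 had a ratio above 0. Relative to all genes the list median was -0.40, and -0.48 after centring within level and length classes. It lay below that of all genes in each of the 13 alternative settings. Pkm, pyruvate kinase, was at 165 in PDGFRβ-S, 361 in DN and 1774 in DP, 2.19-fold (interval 2.02 to 2.37) higher in DN than in PDGFRβ-S. Eno1, enolase, was at 168, 315 and 1213, and Ldha, lactate dehydrogenase, at 304, 534 and 855, 1.88-fold (interval 1.79 to 1.97) and 1.76-fold (interval 1.68 to 1.84) higher in DN. For these 3 enzymes PDGFRβ-S was the lowest of the 3 libraries and DP the highest. P4ha1, a collagen prolyl hydroxylase induced by low oxygen, was at 18.1, 50.4 and 75.6, and Slc2a1, the glucose transporter GLUT1, at 7.65, 15.5 and 99.6. Other targets of the hypoxia factor differed little, with Higd1a at 226 against 240.1 and Bnip3l at 205 against 228. Hif1a, which encodes that factor, was at 93.2 against 112. The core letters of the site it is known to bind, ACGTG on either strand, were found in the 300-base windows of 16 of 23 members (69.6%) and of 1866 of 6256 well-measured genes (29.8%). Examples from the 3 lowest members are shown with the letters in capitals, from RefSeq on GRCm38.p6 on the plus strand, at chr10:59323267-59323296, chr9:59657222-59657251 and chr4:119108696-119108725.
P4ha1: gtgtgacagagcgCACGTagcgagggctgc
Pkm: cccgcattctagtCACGTccgcggactcct
Slc2a1: agtcccgccccggACGTGctccccaggccc
The 16 members with the letters had a median ratio of -0.63 and the 7 without -0.70. In P4ha1 and Pkm the letters read on the other strand.

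Of 30 well-measured chaperones, the proteins that fold others, none was higher and 9 were lower, where 21.7% of all well-measured genes were lower. Their median was -0.44. Relative to all genes it was -0.22, and -0.31 after centring within level and length classes. Hspd1, the mitochondrial chaperonin, was at 137 against 279, 2.04-fold (interval 1.88 to 2.23) higher in DN, and Hsp90ab1, a cytosolic HSP90, at 307 against 538, 1.75-fold (interval 1.68 to 1.82) higher in DN. Hspe1, the partner of Hspd1, was at 556 against 553, so the pair did not move together. Of 56 translation factors 9 were lower and none higher, with a median of -0.26, near that of all genes. Eef2, the elongation factor, was at 114 against 190.2, and Eif4g1 and Eif3d, scaffold and subunit of initiation, at 11.4 against 24.9 and 109 against 227. Asns, asparagine synthetase, a target of the amino acid response, was at 18.9 against 59.8, 3.16-fold (interval 2.62 to 3.83) higher in DN, while Atf4, the factor of that response, was at 274 against 327. Cell cycle genes differed by phase only by small amounts, with list medians of -0.12 in S phase and 0.10 in G2/M relative to all genes. In S phase 1 of 41 was higher and 10 lower, with a median of -0.34, a share of lower genes near the 21.7% of all genes. In G2/M 1 of 44 was higher and 3 lower, below that share, with a median of -0.13. Rrm1, the large subunit of ribonucleotide reductase, was at 179 against 349, Mcm6, of the replicative helicase, at 54.1 against 100.3, and Cks2, a small partner of cyclin-dependent kinases, at 2124 against 1191.

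**Figure D4:**
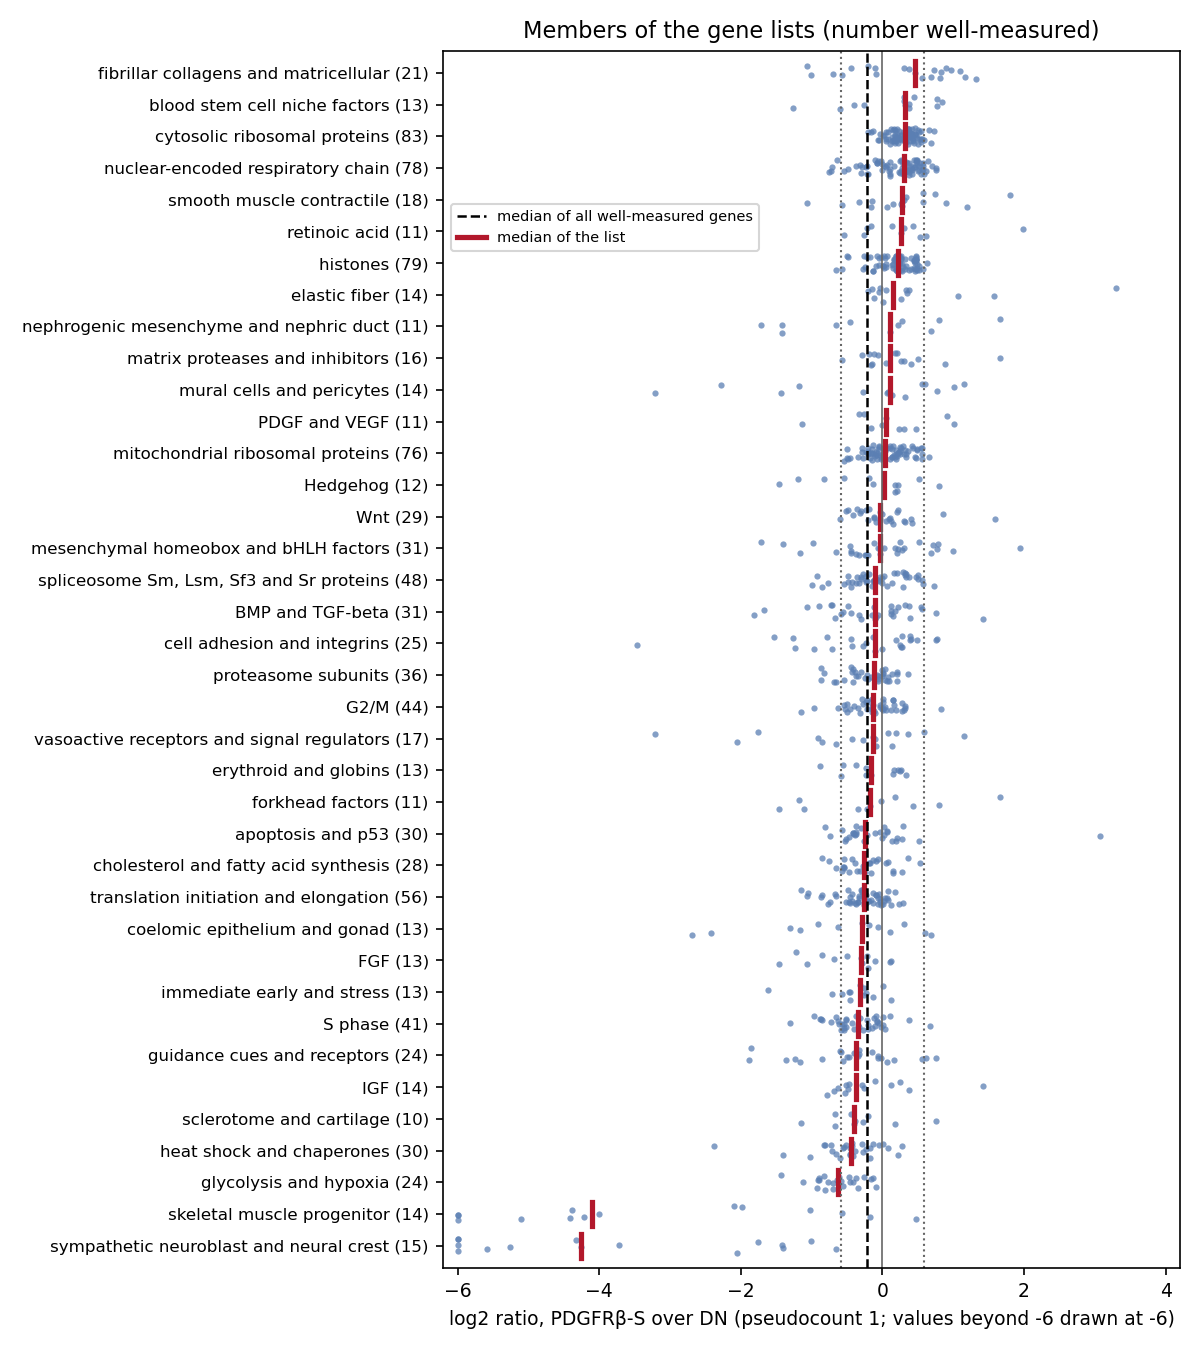
The log2 ratio of PDGFRβ-S to DN (horizontal axis, rescaled TPM + 1) is plotted for the well-measured members of gene lists (rows, 1 point per gene) with the list median in red and the median of all 8253 genes at -0.22 as a dashed line, and values beyond -6 are drawn at -6. The sympathetic and muscle lists lie furthest to the left at medians of -4.26 and -4.11, all glycolytic genes lie below 0, and 77 of 83 ribosomal protein genes lie above 0. Of all 8253 genes, 29.2% lie above 0.

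**Figure D5:**
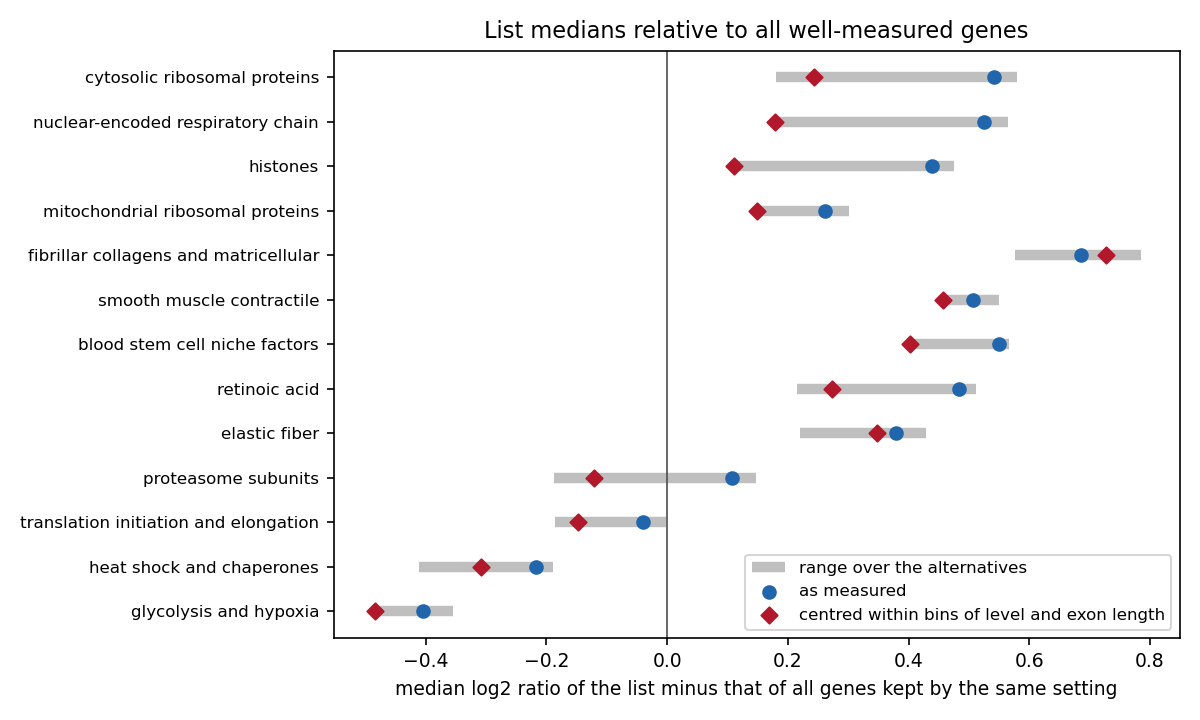
The median ratio of each list minus that of all genes (horizontal axis, log2 units) is plotted as measured (circles), centred within classes of level and length (diamonds) and as the range over the alternatives (grey bars), with lists in rows. The fibrillar collagen list stays between 0.58 and 0.79 above the median of all genes and the glycolysis list between -0.49 and -0.35, while the ribosomal protein list ranges from 0.18 to 0.58.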

How the data were processed

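The authors deposited TPM for 47069 genes with Ensembl identifiers, 1 column per library, made from short single reads of Smart-seq2-type cDNA without molecular identifiers or strand. The aligner named in the submitters' notes was TopHat2 2.0.10 and the build mm10, the GRCm38 assembly. The study's methods name Cufflinks for TPM of RefSeq transcripts and, separately, summarizeOverlaps with a GENCODE annotation for read counts. The deposited table carries Ensembl identifiers, and which route made it could not be settled. A second sheet held 4 per-sample columns that could not be assigned to samples and was not used. Of the TPM, 43.4% in PDGFRβ-S and 46.3% in DN lay on nuclear protein-coding genes, and 25.5% and 24.4% on mitochondrial genes. TPM were rescaled to 1000000 over the 21994 nuclear protein-coding genes.

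Reads were recovered as whole multiples within 1e-06 of a read. All of 5958 genes at a mean of 10 deposited TPM or more gave whole reads, and 0 of 298 did with shifted constants. The summed length of distinct exons gave whole reads for 60.4% of genes and was then used. The union length did so for 8.58%, a share that can overlap with the first. Where the summed length failed, a length was found by search. The length used was a median of 1.15 times the union length in the GENCODE M21 annotation, so levels of different genes are not strictly per length, while ratios of 1 gene are not affected. In that search the shortest length that fitted was used, which gives the fewest reads and the widest intervals. The totals over all rows were 8422880 reads in PDGFRβ-S, 10236996 in DN and 9483271 in DP.

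Ratios were log2((level + 1)/(level + 1)), with calls at 1.5-fold and 2-fold among genes with a mean of at least 10. Ratios printed with an interval carry no pseudocount, and intervals are exact Clopper-Pearson at 95%, covering counting error only, since PCR copies count as separate reads. No test was made, because each group had 1 library. The members and the 53 gene lists were chosen with earlier results of these data known. Genes were named as the sort genes, the 15 highest and 15 lowest ratios among well-measured genes and among genes of at least 1000 reads, without predicted genes, and the 3 highest and 3 lowest of each list. Other list members are given by value where a list is described, and were chosen after their values were seen. Some genes that the rule picks are not reported here. RefSeq promoter windows (GRCm38.p6) matched 6256 of the 8253 genes. Reads of near-identical genes and antisense partners cannot be told apart. Alternatives were other pseudocounts, filters, scalings, centrings and lengths, and the removal of lists of other cell types. Recovery and intervals were run on simulated reads with counting error only. The true lengths and constants were supplied there, so the search for a length and the fit of the constants were not tested. Python 3.11.15, numpy 2.4.6 and pandas 2.3.3 were used.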

Additional observations from a re-analysis of the deposited data

How the results depend on the processing

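No paired analysis was possible because each group had 1 library. The counts of genes higher and lower in PDGFRβ-S depended on the scale and on the filter, where the text has 268 and 1788 genes at 1.5-fold and 66 and 543 at 2-fold. Centred on the median the counts were 758 and 920, and 135 and 306. After quantile normalization they were 716 and 747, and 181 and 226, with a median ratio that turned from -0.22 to 0.015. Centred within GC and length classes they were 632 and 886, and 112 and 300. With TPM as deposited 107 genes were higher at 1.5-fold, and 26 were higher and 284 lower at 2-fold. With a pseudocount of 5, 331 genes were lower at 2-fold. With a mean of at least 5 the 2-fold counts were 123 and 919, and with a mean of at least 20 they were 36 and 259, with 1051 lower at 1.5-fold. Alternatives chosen after seeing the data gave 617 and 834, and 145 and 260, when centred within level and length classes, and 915 lower at 2-fold in genes of at least 100 reads, where the median of the T-box factors turned from 0.60 to -0.11. The causes were not tested. A fold lower by less than 1.75 is within 1.5-fold once centred: of 132 named genes counted as lower 107 remained so, and of 71 counted as higher all 71. Centring on the median raises every ratio, so the result for the higher ones was fixed in advance. None of the 203 then changed sign, which their choice by this ratio made likely. Over the other alternatives, the higher ones that remained ranged from 59 with TPM as deposited and 63 when centred within level and length classes to 71, and the lower ones from 98 after quantile normalization to 132. The medians of the lists for Hedgehog, Notch, guidance, Hoxd, nephrogenic, coelomic, imprinted, cholesterol, apoptosis, proteasome, erythroid and zinc finger genes changed sides of the median of all genes in at least 1 setting. A single library per group sets the limit: whether a difference of this size recurs in a second sort cannot be read from these data, and a gene of 2 kb with 3 reads lies at a level of about 0.749 in PDGFRβ-S.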
